A study of Mus musculus with 3 samples.

Results

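CpG dinucleotides that stand alone in the sequence, with no other CpG within 300 bp on either side, were picked by position only from the autosomal CpGs at which TAPSβ, CAPS or PS listed a cytosine, with both strands merged. These isolated CpGs numbered 434660 of 19642088 autosomal CpGs (2.21%), and the whole series listed 20537914 CpGs with the X and Y chromosomes. The nearest CpG lay 300 to 500 bp away for 343928 of them, 500 to 1000 bp away for 86714 and more than 1000 bp away for 4018, with a median of 385 bp. They were compared with 4567349 CpGs that had 1 to 3 other CpGs within 300 bp and with 9760314 CpGs that had 4 to 10. All 3 libraries came from unmodified E14 mESCs, an established line of mouse embryonic stem cells, kept on gelatin in medium with serum, LIF, PD0325901 (a MEK inhibitor) and CHIR99021 (a GSK3 inhibitor). TAPSβ reads 5mC as T after 5hmC is shielded by a glucose, CAPS reads 5hmC as T after chemical oxidation, and PS reads 5fC and 5caC as T without oxidation. Each method had 1 library without replicates, so no class could be tested against another over samples. The level of a class was the share of its reads that were modified, and intervals are exact (Clopper-Pearson) 95% binomial intervals that cover counting error only. The range over the 19 autosomes of the same library is given as a description of spread, not as a replicate error.

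CpGs are rare in most of the mouse genome because 5mC deaminates to thymine, and a methylated CpG is thereby turned into TpG. DNMT1, guided by UHRF1, copies methylation to the new strand after replication, DNMT3A and DNMT3B add it to unmethylated CpGs, and the TET enzymes oxidize 5mC to 5hmC, 5fC and 5caC. In other cells, CpGs without near neighbours and with A or T on both sides are known as those that lose methylation first in late-replicating DNA. Densely placed CpGs of islands are in contrast mostly unmethylated.

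The sequences below show what such a stretch looks like, 62 bases of mm9 plus strand around the CpG, which is in capitals. The first 3 are the CpGs farthest from any other CpG of the reference assembly among those with at least 20 TAPSβ and 10 CAPS and PS reads. The next 3 had the highest CAPS levels, and the last 3 had no modified TAPSβ read although both strands were read.
chr6:16324430-16324491: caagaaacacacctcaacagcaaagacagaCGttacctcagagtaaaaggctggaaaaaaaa
chr10:97707574-97707635: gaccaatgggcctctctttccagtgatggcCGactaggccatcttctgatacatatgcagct
chr17:39320268-39320329: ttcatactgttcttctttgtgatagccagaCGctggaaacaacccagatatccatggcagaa
chr11:88770219-88770280: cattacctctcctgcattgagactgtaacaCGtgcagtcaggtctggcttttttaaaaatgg
chr17:17588207-17588268: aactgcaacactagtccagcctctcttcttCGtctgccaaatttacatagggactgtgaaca
chr11:72483950-72484011: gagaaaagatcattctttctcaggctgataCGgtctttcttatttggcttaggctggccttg
chr1:120900590-120900651: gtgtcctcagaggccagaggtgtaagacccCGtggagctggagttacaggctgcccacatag
chr1:11320580-11320641: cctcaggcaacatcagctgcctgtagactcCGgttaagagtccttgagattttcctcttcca
chr1:121244483-121244544: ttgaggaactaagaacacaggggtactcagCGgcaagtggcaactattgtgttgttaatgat

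The chr6 CpG, with 2621 bp to the nearest CpG on one side and 2785 bp on the other, lay between genes and was modified in 25 of 40 TAPSβ reads (62.5%, interval 45.8 to 77.3%). The chr10 CpG, 2561 bp from its nearest neighbour, was modified in 16 of 30 TAPSβ reads (53.3%, 34.3 to 71.7%). The 22 bases around it occurred at 26477 autosomal CpGs, so that reads of other copies may be among these, while those of the chr6 CpG occurred at 3 and those of the chr17 CpG at 6. The chr17 CpG at 2082 bp was modified in 10 of 31 (32.3%, 16.7 to 51.4%). Modified TAPSβ reads were thus present at all 3, and CAPS read 1 of 18, 0 of 15 and 0 of 15 as modified. Counting error alone allows a CAPS level of up to 21.8% for 0 of 15 reads.

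The definition held for the assembly as well as for the listed CpGs in most cases. A reference CpG that no library listed lay within 300 bp of 10362 isolated CpGs (2.38%), and of 897 of the 4018 CpGs beyond 1000 bp (22.3%). Distance to the nearest listed CpG alone gave a mixed set. Of the 5 CpGs farthest by this measure, 2 are the chr6 and chr10 CpGs above. The farthest of the 5, at chr7:9163587-9163588 near Vmn2r39, was modified in 13 of 20 TAPSβ reads, with a reference CpG 1005 bp away, and that at chr5:94368467-94368468, in coding sequence of Gm16429 and Gm6346, in 17 of 21, with a reference CpG 337 bp away. The fifth, at chr9:117903662-117903663 in an intron of Zcwpw2, had an unlisted reference CpG 99 bp away. It had 0 modified of 29 TAPSβ reads (up to 11.9%) and 46 CAPS reads. CpGs just inside and just outside the 300-bp limit had close values, with a TAPSβ level of 64.7% at 281 to 300 bp and of 64.9% at 301 to 320 bp.

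Coverage of isolated CpGs was above that of denser CpGs in TAPSβ and close to it in the other libraries. The mean was 28.8 reads per CpG in TAPSβ, 19.7 in CAPS and 18.2 in PS, with both strands summed. CpGs with 4 to 10 neighbours had 25.3, 19.4 and 19.4 reads, so that the ratio was 1.14, 1.02 and 0.935. Beyond 1000 bp the means were 20.98, 14.4 and 13.0 reads, and 19.2% of these CpGs had no TAPSβ read. The CAPS library was made from shorter fragments than the others.

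Isolated CpGs were methylated to about the same level as CpGs of ordinary density. TAPSβ read 8140387 of 12500465 reads as modified, a level of 65.1% (65.09 to 65.15%). The level was 66.5% with 1 to 3 neighbours, 64.0% with 4 to 10 and 32.5% with more than 10. Against 1 to 3 neighbours, isolated CpGs were 1.37 percentage points lower, and lower on all 19 autosomes. Against 4 to 10 neighbours they were 1.11 points higher in the pool, but the difference lay between -0.830 and 3.91 points on single autosomes and was negative on 3, namely chromosomes 8, 12 and 14. Its sign also turned with the reference set. It was -0.356 points over 10 kb from coding starts, -1.23 points when the denser class was weighted to the same 1-Mb bins, and -2.23 points when it was weighted to the same flanking GC content.

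5hmC was scarcer at isolated CpGs. CAPS read 170048 of 8567069 reads as modified, a level of 1.98% (1.976 to 1.994%), against 2.44% with 1 to 3 neighbours and 3.44% with 4 to 10. The ratio to the latter was 0.576 (0.574 to 0.579), it lay between 0.541 and 0.650 on single autosomes, and isolated CpGs were lower on all 19. The ratio to CpGs with 1 to 3 neighbours was 0.812 (0.808 to 0.816), again lower on all 19. When the false-positive rate used for calling, 0.0072, was subtracted from both levels, the ratio was 0.464.

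PS, which reads the rarest forms, gave 0.280% (0.276 to 0.284%) at isolated CpGs against 0.213% with 4 to 10 neighbours, a ratio of 1.31. With 1 to 3 neighbours the PS level was 0.245%, and with more than 10 it was 0.287%, above that of isolated CpGs. All of these levels are close to or below the rate at which the study's PS read unmodified cytosines of a spike-in as T. The PS values thus compare levels at background and cannot be read as amounts of 5fC and 5caC. On single autosomes the ratio ran from 0.965 to 2.13, and the PS level of isolated CpGs was highest on chromosomes 12 (0.587%), 4 (0.465%), 7 (0.417%) and 17 (0.409%). Most of this excess sat at 1335 isolated CpGs (0.307%) where a strand with 5 or more reads had a PS level of 20% or more, here called variant-like. The name stands for this rule only, and whether these CpGs are variants was not tested. Of 359399 isolated CpGs with 5 or more PS reads on both strands, 27 had a PS level of 80% or more on 1 strand. Variant-like CpGs made up 0.191% of CpGs with 4 to 10 neighbours, 0.255% with 1 to 3 and 0.290% with more than 10. Without them the level was 0.174% at isolated CpGs and 0.169% with 4 to 10 neighbours. Between these the ratio was 1.03 (1.01 to 1.05), with isolated CpGs higher on 12 of 19 autosomes. With 1 to 3 neighbours the level without them was 0.171%, and with more than 10 it was 0.225%. The filter acts on the PS level itself, so these values are a description.

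**Figure D1:**
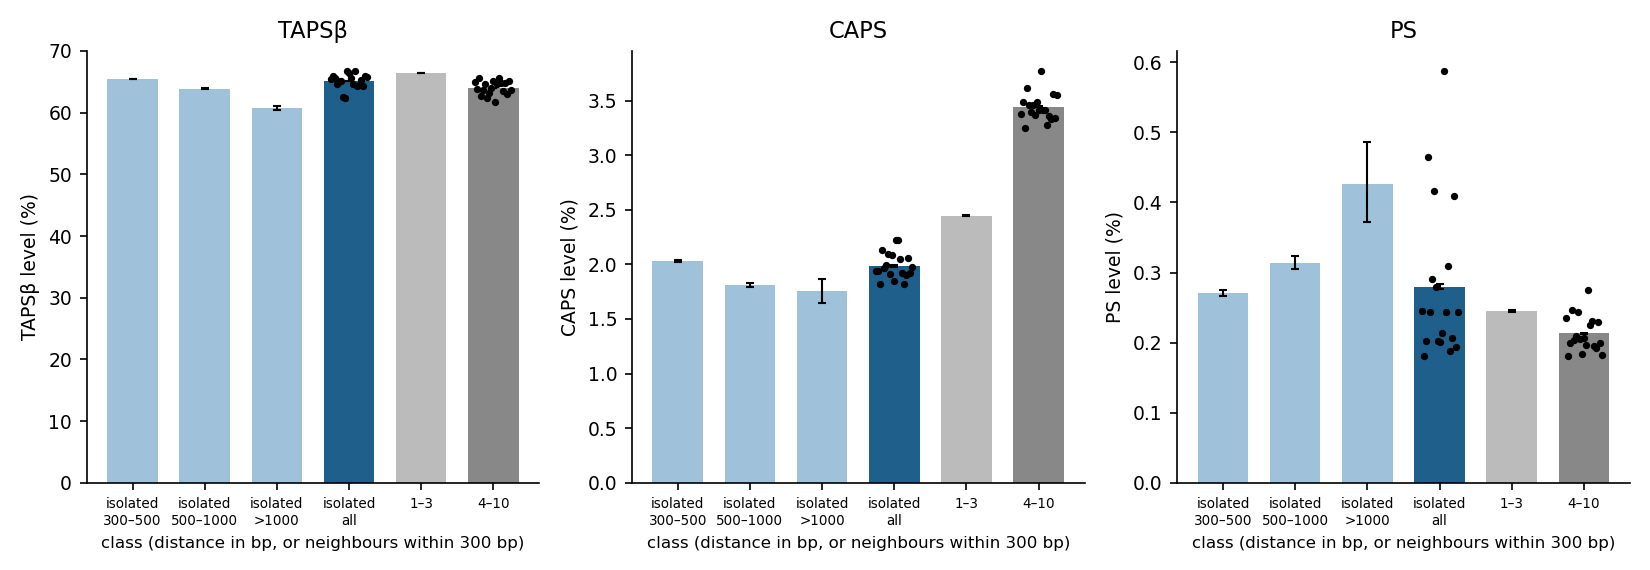
Levels (%) in the TAPSβ, CAPS and PS libraries for isolated CpGs, by distance to the nearest CpG in bp and together, and for CpGs with 1 to 3 and 4 to 10 neighbours within 300 bp. Bars are pooled levels with exact 95% intervals, and points on the dark bars for all isolated CpGs and for 4 to 10 neighbours are the 19 autosomes. In CAPS the isolated points lie below those of 4 to 10 neighbours, while in TAPSβ they overlap.

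With growing distance the level of TAPSβ fell, that of CAPS over all CpGs fell at first, and that of PS did not. TAPSβ gave 65.5% at 300 to 500 bp, 63.9% at 500 to 1000 bp and 60.8% (60.5 to 61.1%) beyond 1000 bp. Of the last class, the level was 61.0% at 3305 CpGs up to 1500 bp, 57.9% (56.2 to 59.6%) at 344 up to 2000 bp, and 46.7% (42.5 to 50.9%) at 369 farther ones, which had 1.53 TAPSβ reads per CpG. CAPS gave 2.03%, 1.81% and 1.76% (1.65 to 1.87%). Its fall went on without variant-like CpGs and those read on 1 strand only, defined below with the single CpGs. CAPS then gave 1.97%, 1.73% (1.71 to 1.75%) and 1.58% (1.48 to 1.69%). PS gave 0.270%, 0.314% and 0.427%, and without variant-like CpGs 0.173%, 0.178% and 0.164%.

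The fall of TAPSβ was not even. In steps of 20 bp from 100 to 600 bp, the level was high at 181 to 200 bp (67.9%), low at 261 to 280 bp (64.5%), high again at 361 to 380 bp (66.9%), low at 461 to 480 bp (63.5%) and high once more at 541 to 560 bp (65.0%). The high steps were 180 bp apart. The wider windows that follow were placed on these high and low steps after the profile had been seen, in the same reads, so their differences describe the profile and are no independent check of it. Among isolated CpGs, the 85102 with their nearest CpG at 341 to 380 bp had 66.8%, and the 36206 at 441 to 480 bp had 63.6%, a difference of 3.21 points that was positive on all 19 autosomes. The 16598 at 541 to 580 bp had 64.8%, 1.25 points above those at 441 to 480 bp, and were higher on 18 of 19. The wave was present on each strand alone, with a difference between 341 to 380 and 441 to 480 bp of 3.39 points on the plus and 3.03 points on the minus strand. It was 3.90 points at CpGs with A or T on both sides and 1.70 points at those with C or G on both. It was 3.18 points among CpGs of unique sequence that were neither variant-like nor read on 1 strand only, as defined with the single CpGs.

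The distance on the other side carried the same wave. Among isolated CpGs with the nearest CpG at 301 to 340 bp, the TAPSβ level was 66.9% when the next CpG on the other side lay at 341 to 380 bp, 64.1% at 461 to 500 bp, 66.4% at 541 to 580 bp and 64.2% at 621 to 660 bp. The intervals of the high and of the low values did not overlap. CAPS did not rise and fall in this way over all CpGs. It went from 2.16% at 261 to 300 bp to 2.05% at 341 to 380 bp, 1.93% at 441 to 480 bp and 1.88% at 541 to 580 bp, and the value at 341 to 380 bp exceeded that at 261 to 300 bp on 1 of 19 autosomes, where TAPSβ was higher on 19. In steps of 20 bp CAPS went from 1.81% at 481 to 500 bp to 1.89% at 541 to 560 bp and 1.83% at 581 to 600 bp, with intervals that overlapped. Where the flanking GC content was under a limit close to the mean of isolated CpGs (37.7%), CAPS was 1.58% at 341 to 380 bp against 1.56% at 261 to 300 bp, with overlapping intervals, and 1.48% at 441 to 480 bp, lower than at 341 to 380 bp on 15 of 19 autosomes. It was 1.56% at 541 to 580 bp, with an interval that overlapped that at 441 to 480 bp, and higher than there on 12 of 19 autosomes.

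**Figure D2:**
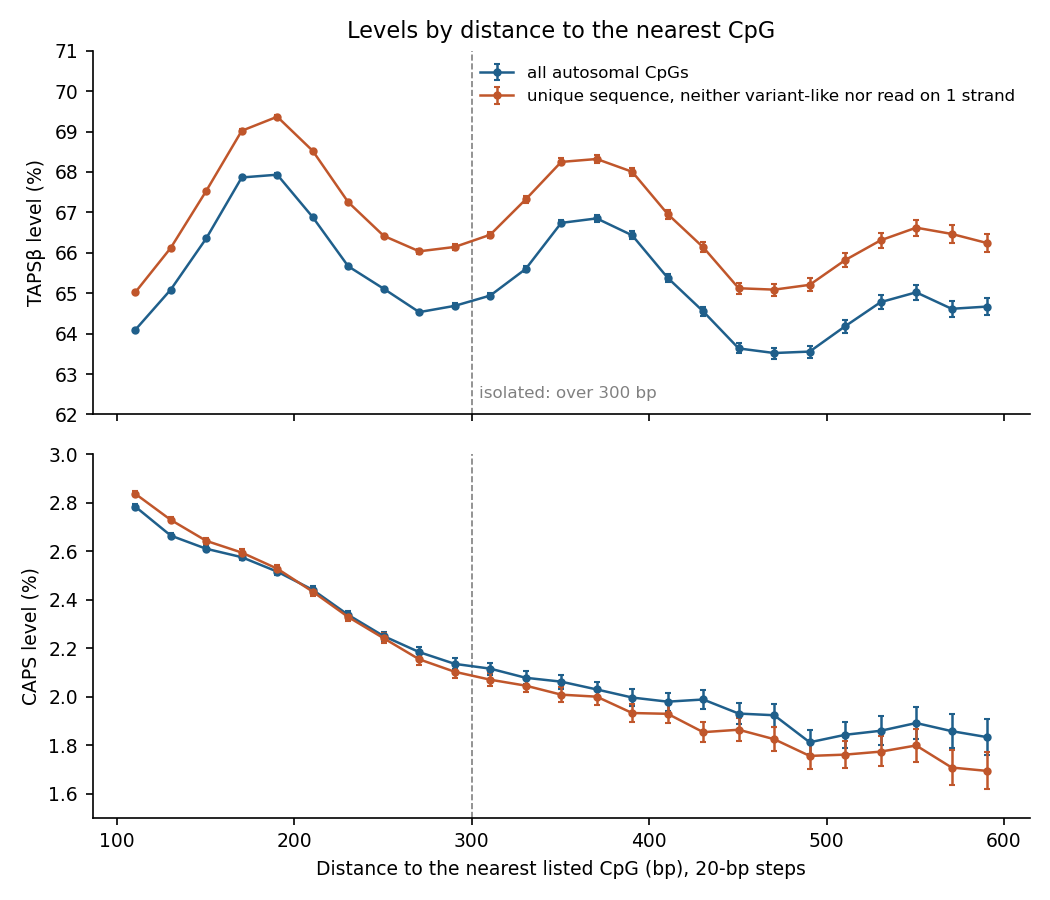
TAPSβ level (%, upper panel) and CAPS level (%, lower panel) by distance to the nearest listed CpG (bp) in steps of 20 bp with exact 95% intervals, for all autosomal CpGs (blue) and those of unique sequence that were neither variant-like nor read on 1 strand (orange); the vertical axes do not start at 0. TAPSβ rises and falls with high steps at 181 to 200, 361 to 380 and 541 to 560 bp, and CAPS falls over most of the range, from 2.18% at 261 to 280 bp to 1.89% at 541 to 560 bp; the dashed line marks 300 bp, beyond which CpGs are isolated.

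The methylation of isolated CpGs differed by the bases beside the CpG. With A or T on both sides (WCGW) the TAPSβ level was 60.6%, with A or T on one side (SCGW) 67.3%, and with C or G on both (SCGS) 71.6%. On single autosomes the difference of WCGW from SCGS lay between -12.2 and -9.44 points. In CpGs with 4 to 10 neighbours it was -5.20 points, with an autosomal range of -5.97 to -4.60 points that did not overlap that of isolated CpGs. With 1 to 3 neighbours it was -8.90 points, and the autosomal range of -9.57 to -7.92 points overlapped that of isolated CpGs. Over 10 kb from coding starts the difference was -11.2 points for isolated CpGs and -5.65 points for 4 to 10 neighbours. WCGW made up 40.4% of isolated CpGs and 28.5% of those with 4 to 10 neighbours. Of the 10 tetranucleotides, TCGA was lowest at 57.9% and GCGC highest at 74.7%, and beyond 1000 bp these were 53.3% and 73.4%.

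CAPS ordered the tetranucleotides in another way. ACGG was highest at 2.55% and CCGG next at 2.49%, while GCGC (1.44%), TCGA (1.45%) and GCGA (1.45%) were lowest. The most and the least methylated tetranucleotide were thus both low in 5hmC.

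Longer sequences spread the levels further. For the 962 sequences of 8 bases, 3 on each side of the CpG and merged with their reverse complement, that were found at 200 or more isolated CpGs, the TAPSβ level lay between 32.5% and 82.4%. Whether the flanking bases themselves set these levels was not tested. The extremes among the 962 sequences are printed, with the CpG in capitals.
lowest TAPSβ: aaaCGttt
second lowest TAPSβ: aaaCGacc
highest TAPSβ: ttaCGcaa
second highest TAPSβ: ctaCGcaa
lowest CAPS: gagCGaaa
highest CAPS: agcCGtag

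The palindrome aaaCGttt had 32.5% (31.9 to 33.2%) at 768 isolated CpGs, and 36.7% at the CpGs of the same 8 bases with 1 to 3 neighbours. The next, aaaCGacc, had 39.3% at 389 isolated CpGs. At the other end, ttaCGcaa had 82.4% (81.5 to 83.3%) and ctaCGcaa 81.3%, against 81.9% and 80.7% with 1 to 3 neighbours. The bases directly beside the CpG gave a smaller range and another order, with 62.6% over all ACGT, 60.7% over all ACGA and 70.1% over all ACGC. Across the 962 sequences, the TAPSβ levels of isolated CpGs and of CpGs with 1 to 3 neighbours had a Pearson correlation of 0.980, and of 0.908 with 4 to 10 neighbours. These are correlations across sequences within 1 library, over different CpGs. In CAPS the correlation with 1 to 3 neighbours was 0.864. Isolated CpGs were lower than those with 4 to 10 neighbours for 958 of 962 sequences in CAPS and for 307 of 962 in TAPSβ. Against 1 to 3 neighbours they were lower for 882 sequences in CAPS and for 732 in TAPSβ. The lowest CAPS level, 0.815% (0.593 to 1.09%) at gagCGaaa, was near the false-positive rate, and the highest was 4.19% (3.65 to 4.79%) at agcCGtag.

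**Figure D3:**
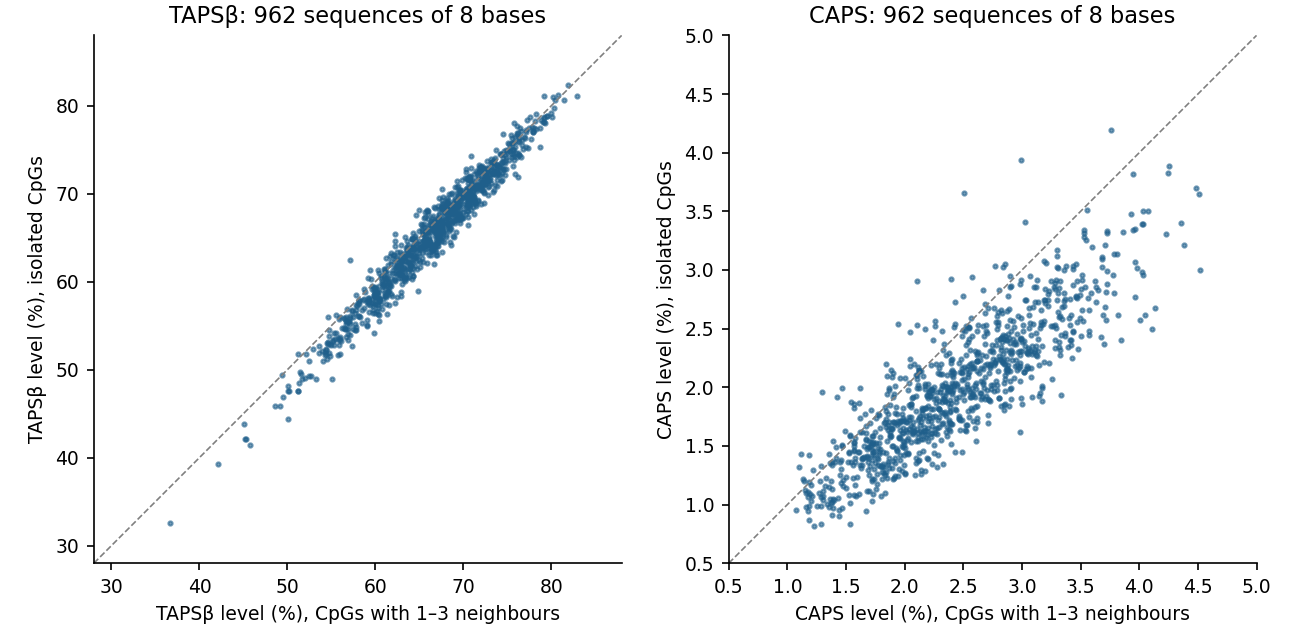
Level (%) of isolated CpGs against that of CpGs with 1 to 3 neighbours for 962 sequences of 8 bases, in TAPSβ (left) and CAPS (right). Each point is 1 sequence and the dashed line marks equal levels; the axes do not start at 0. TAPSβ points follow the line from 32.5% to 82.4% with 732 under it, and 882 CAPS points lie under it.

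Known motifs with 1 CpG were searched on both strands so that their CpG was the isolated one. CACGTG, the E-box of MYC and related factors, was present at 6162 isolated CpGs (1.42%, against 1.25% of all autosomal CpGs) with a TAPSβ level of 60.1% and a CAPS level of 2.197%. TGACGTCA, the site of CREB and ATF factors, was found at 231 with 65.6% and 3.50%, and CCGGAAG, which ETS factors bind, at 1139 with 73.5% and 2.32%. GGGCGG, the SP1 site, was held by 0.620% of isolated and 1.41% of all autosomal CpGs, with 65.6% and 1.60%. TGCCGC was found at 1751 with 73.2% and 2.67%. Each motif had a lower CAPS level at isolated CpGs than at CpGs with 4 to 10 neighbours, where the values were 4.07%, 5.73%, 4.12%, 2.62% and 4.29%. This was not particular to the motifs, as 958 of the 962 longer sequences above were lower as well. Isolated TGACGTCA had a PS level of 0.893% (0.636 to 1.22%), against 0.280% at all isolated CpGs. Whether this excess in PS is also part of its CAPS level of 3.50% was not tested. No occupancy was measured, and the matches were not compared with known binding sites.

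Isolated CpGs lay in AT-rich sequence. The 300 bp on each side had a GC content of 37.7 ± 5.31% (SD over CpGs), against 40.2% with 1 to 3 and 44.7% with 4 to 10 neighbours. The density of TpG and CpA relative to base composition was 1.26 in all 3 classes. CAPS rose with GC content, from 1.10% below 30% GC to 3.32% at 50% GC or more, while TAPSβ stayed between 61.8% and 65.7%. At equal GC content CAPS remained lower at isolated CpGs than with 4 to 10 neighbours, at 1.95% against 2.36% for 35 to 40% GC and 2.53% against 3.18% for 40 to 45% GC. Weighted to the GC content of isolated CpGs, CpGs with 4 to 10 neighbours had a CAPS level of 2.38%, and the ratio was 0.832 in place of 0.576. A smaller part of the difference in CAPS thus remained at equal GC content.

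**Figure D4:**
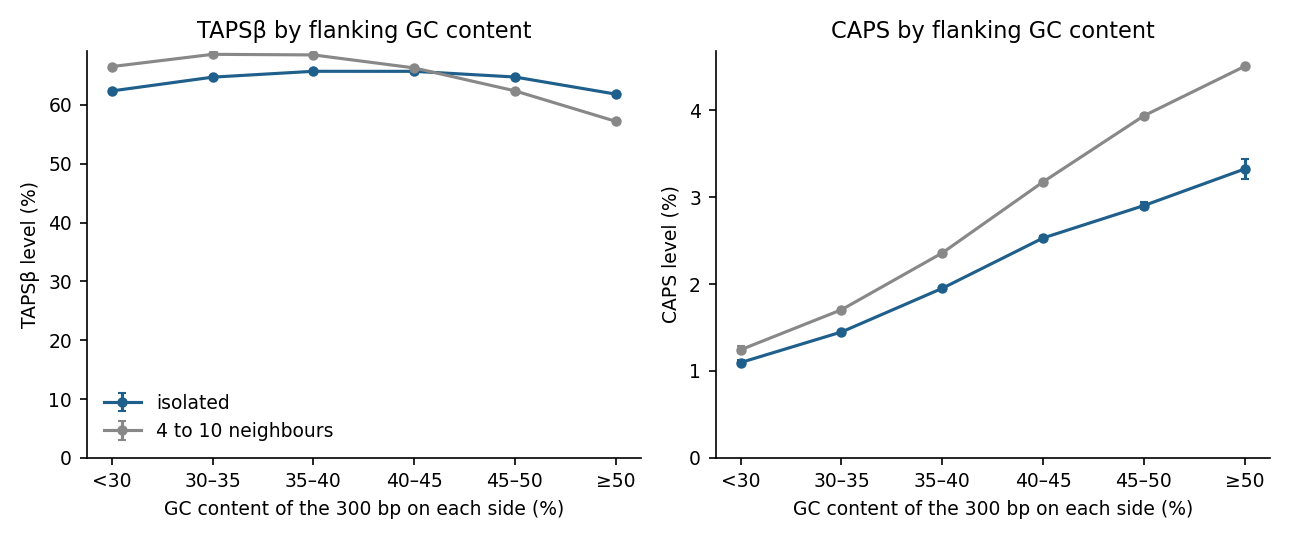
TAPSβ (left) and CAPS (right) levels (%) by GC content (%) of the 300 bp on each side, for isolated CpGs and CpGs with 4 to 10 neighbours, with exact 95% intervals. CAPS rises with GC content in both, from 1.10% to 3.32% at isolated CpGs.

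At equal TAPSβ level, taken over CpGs with at least 10 TAPSβ reads, isolated CpGs also had less CAPS signal. At 20 to 40% TAPSβ the CAPS level was 2.91% at isolated CpGs, 4.62% with 1 to 3 neighbours and 7.37% with 4 to 10. At 80 to 100% it was 1.60%, 1.83% and 2.203%. Weighting the denser class to the TAPSβ levels of isolated CpGs left the ratio at 0.559.

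Called cytosines told the same as levels. Of 791885 cytosines of isolated CpGs with at least 5 CAPS reads, 5832 (0.736%, 0.718 to 0.756%) were called as modified. A call was an adjusted p under 0.05 in an exact binomial test, one-sided and against 0.0072, with Benjamini-Hochberg adjustment over all cytosines of the table. Over all tested cytosines 1.64% were called. The share was 1.10% with 1 to 3 and 1.89% with 4 to 10 neighbours, or 1.95% when the latter were weighted to the read depths of isolated CpGs. Variant-like CpGs held 763 of the 5832 (13.1%), and 2.24% of the calls with 4 to 10 neighbours. Among isolated CpGs, 0.307% of cytosines were called below 35% GC and 1.48% at 45% GC or more. Within 10 kb of a coding start 1.32% were called, and 0.435% beyond 100 kb. Both strands were called at 285 of 5321 isolated CpGs with a call and 5 reads on each strand (5.36%), against 5.04% with 1 to 3 and 4.64% with 4 to 10 neighbours. Tested isolated cytosines had a median of 10 CAPS reads, and called ones a median level of 28.6%, so a call is far above the pooled level.

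Single isolated CpGs were mostly intermediate, as were CpGs with 1 to 3 and with 4 to 10 neighbours. Among those with at least 20 TAPSβ reads the median level was 69.6% (quartiles 57.5 and 79.2%), 2.304% lay under 20%, 74.3% from 20% to below 80%, and 23.4% at 80% or more. With 1 to 3 neighbours 2.68% lay under 20% and 69.9% from 20% to below 80%. With 4 to 10 neighbours 5.92% lay under 20%, 66.6% from 20% to below 80% and 27.5% at 80% or more. After removal of the counting variance the SD over CpGs was 15.8 points for isolated CpGs, 16.3 points for 1 to 3 neighbours and 20.1 points for 4 to 10.

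Most isolated CpGs without any modified TAPSβ read were not read as CpGs on both strands. At 17019 isolated CpGs (3.92%) every library had reads on 1 strand only, with at least 10 in TAPSβ and 5 in CAPS and PS, and here the TAPSβ level was 0.821%. The share was 3.23% with 1 to 3, 2.31% with 4 to 10 and 0.902% with more than 10 neighbours. Of 3838 isolated CpGs at 0 among those with at least 20 reads, 3127 (81.5%) were of this kind. With 1 to 3 neighbours this share was 61.0%, and with 4 to 10 it was 18.7%. Whether the genome of E14 holds a CpG at these positions was not tested. The 3 isolated CpGs chosen by the lowest TAPSβ level, with 0 of 88, 0 of 82 and 0 of 66 reads, were all read on 1 strand only. They lie at chr4:146829611-146829612 in an exon of Gm16889 and Gm17317 and between genes at chr12:116302389-116302390 and chr7:55189232-55189233. Without CpGs read on 1 strand the TAPSβ level of isolated CpGs over that of 4 to 10 neighbours was 1.70 points in place of 1.11 points.

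With both strands read at 5 or more reads in each library, 4484 of 326479 isolated CpGs (1.37%) lay under 20% in TAPSβ, a set without variant-like CpGs and CpGs of high coverage. The share was 2.01% with 1 to 3 and 5.46% with 4 to 10 neighbours. It was 3.02% within 1 kb of a coding start, where 5.98% of CpGs with 1 to 3 neighbours, 19.9% with 4 to 10 and 90.3% of those with more than 10 were this low, and 1.22% over 10 kb away. Low isolated CpGs had a CAPS level of 3.99%, above that of isolated CpGs at large. Low CpGs with 1 to 3 neighbours had 4.83% and those with 4 to 10 had 4.89%, so low isolated CpGs had less. The 3 lowest isolated CpGs, chosen for this after the values were seen, had 0 of 65, 0 of 53 and 0 of 53 reads modified and no modified read in CAPS or PS. They were the last 3 sequences above, in an intron of Gli2, a transcription factor of Hedgehog signalling, and between genes 26847 bp from Prex2 and 67529 bp from Inhbb. Counting error allows a TAPSβ level of up to 5.52% for the first.

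The highest CAPS levels were 10 of 21 reads in an intron of 4930405P13Rik (47.6%, 25.7 to 70.2%), 9 of 20 in an intron of Lix1 (23.1 to 68.5%) and 8 of 20 in an intron of Ube2g1 (19.1 to 63.9%). The first of these, on chr11, was a CACGTG. TAPSβ levels there were 69.2%, 33.3% and 46.4%, and both strands held modified CAPS reads in each. They were chosen as the extremes of 109566 CpGs with at least 20 reads in every library, of which 65.7% had no modified CAPS read and 485 (0.443%) had 20% or more.

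The strands of an isolated CpG differed little beyond counting. Over 334442 isolated CpGs with at least 10 TAPSβ reads on each strand, the variance of the strand difference was 1.10 times the counting variance, as it was with 1 to 3 neighbours (1.10) and with 4 to 10 (1.09). The mean absolute difference was 13.5 points, and 0.487% of CpGs differed by more than 50 points. The correlation of the strands was 0.585 for isolated CpGs and 0.739 with 4 to 10 neighbours, with less spread of levels in the former. In CAPS the variance ratio was 1.33 against 1.15 with 4 to 10 neighbours, and without variant-like CpGs 1.09 in both.

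Isolated CpGs resembled their nearest CpG only weakly. The TAPSβ levels of an isolated CpG and of the nearest CpG, with at least 20 reads at each, had a correlation of 0.190 over 342531 pairs at a median distance of 383 bp. It was 0.412 with 1 to 3 neighbours at 82 bp and 0.682 with 4 to 10 at 30 bp, where pairs share reads. Among isolated CpGs it was 0.201 at 300 to 500 bp, 0.146 at 500 to 1000 bp and 0.101 beyond. A correlation depends on the spread of levels, which was smaller at isolated CpGs, as given with the single CpGs. The mean absolute difference from the nearest CpG was 17.2 points for isolated CpGs. It was 14.7 points with 1 to 3 and 13.0 points with 4 to 10 neighbours, a smaller contrast.

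By position, 69.5% of isolated CpGs were intergenic, 29.2% intronic and 0.482% in coding sequence, against 49.1%, 45.02% and 3.14% for 4 to 10 neighbours. Isolated CpGs in introns had more CAPS signal (2.297%) than those between genes (1.83%), and those in untranslated regions had 2.82% and in coding sequence 2.38%. TAPSβ differed less, from 64.8% between genes to 67.6% in coding sequence. Near coding starts isolated CpGs were methylated. The 3383 within 1 kb of a coding start had a TAPSβ level of 63.5%, against 61.6% with 1 to 3 and 49.5% with 4 to 10 neighbours and 13.0% for all autosomal CpGs there. Their CAPS level was 2.69%, which fell to 1.66% over 100 kb from coding starts, where 52.2% of isolated CpGs lay.

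Over 2407 bins of 1 Mb, the TAPSβ level of isolated CpGs was lower than that of CpGs with 4 to 10 neighbours in 1205 (50.1%), and CAPS was lower in 2285 of 2391 bins (95.6%). Isolated CpGs followed the methylation of their surroundings in part. In the fifth of bins with the lowest TAPSβ level at 4 to 10 neighbours (58.4%), isolated CpGs had 61.6%, and in the fifth with the highest (70.0%) they had 67.0%. The difference of WCGW from SCGS grew along these groups of bins, from -8.93 to -12.1 points. The number of isolated CpGs per bin grew from 112 to 252 as well, and the CAPS level fell from 2.85% to 1.69%, beside a fall from 4.10% to 2.64% with 4 to 10 neighbours. Groups were formed by the level of the denser CpGs, so the levels of the latter are no result.

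The 10 protein-coding genes with the most isolated CpGs held 429 to 794 each. Cntnap2, an adhesion protein of axons, held 794 (8.32% of its CpGs, chr6:45010060-47251368). Lrp1b, a lipoprotein receptor, had 690, Ptprd, a receptor phosphatase of synapses, 681, and Dlg2, a scaffold of the postsynaptic density, 560. The other 6 were Macrod2, Fhit, Lrrc4c, Sgcz, Csmd1 and Csmd3. Isolated CpGs of Cntnap2 had a TAPSβ level of 63.1% (62.5 to 63.8%) and a CAPS level of 1.56% (1.37 to 1.77%), against 64.0% and 2.22% at its CpGs with 4 to 10 neighbours. Sgcz, a sarcoglycan, was lowest in TAPSβ with 55.5% (54.6 to 56.5%), and Macrod2, which removes ADP-ribose from proteins, was highest with 69.2% (68.4 to 69.9%). The CAPS level of isolated CpGs was below that of 4 to 10 neighbours in all 10 genes, with overlapping intervals in Dlg2 and Sgcz. In TAPSβ isolated CpGs were lower in 9 of 10, all but Macrod2, with overlapping intervals in Cntnap2 and Fhit. Among protein-coding genes with at least 10 isolated CpGs the shares were 79.3% in CAPS and 49.8% in TAPSβ. The share of genes with intervals apart was not computed.

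**Figure D5:**
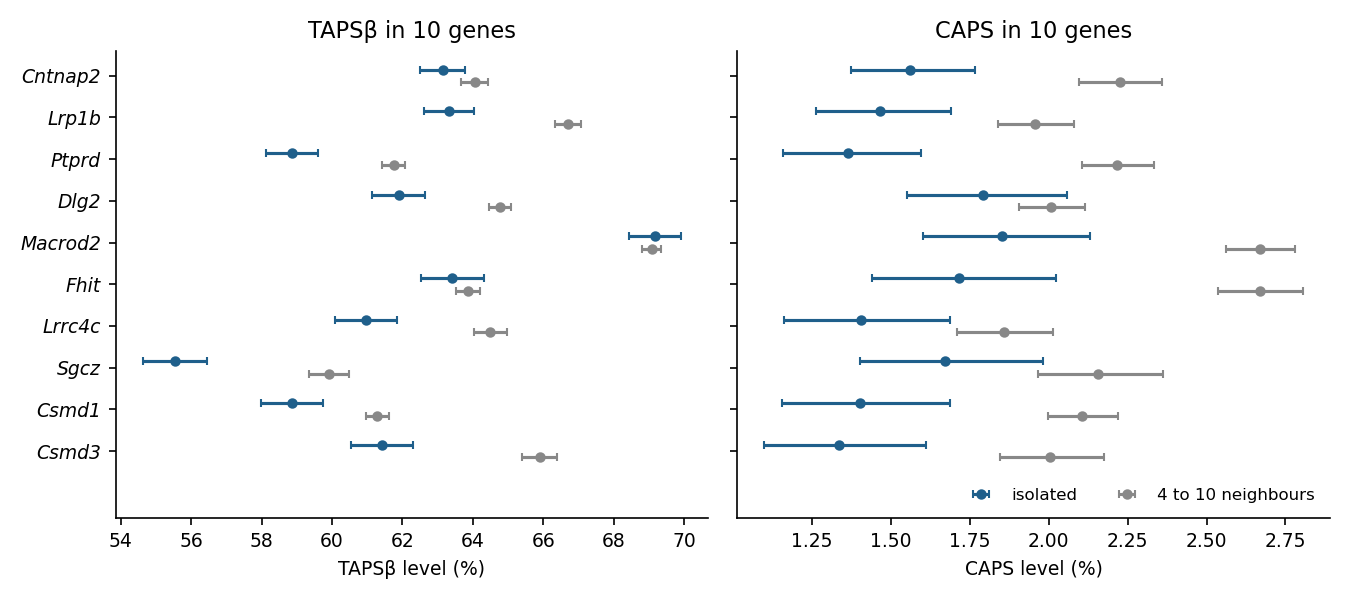
TAPSβ (left) and CAPS (right) levels (%) of isolated CpGs and of CpGs with 4 to 10 neighbours in the 10 protein-coding genes with the most isolated CpGs. Points are pooled levels with exact 95% intervals, and the axes do not start at 0. In CAPS the isolated level is the lower one in each gene, from 1.34% in Csmd3 to 1.85% in Macrod2.

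A list of 20 genes with long introns, drawn up as synapse and adhesion genes, held 7509 isolated CpGs, 5.58% of their CpGs against 1.32% over all protein-coding genes. It shares Cntnap2, Lrp1b, Ptprd, Dlg2, Macrod2, Csmd1 and Csmd3 with the 10 genes above. Its share of isolated CpGs was thus partly set by the choice and is a description. Macrod2, which is no such gene by the role given above, was on the list. Isolated CpGs were lower than those with 4 to 10 neighbours in CAPS in 20 of the 20 genes and in TAPSβ in 18. The CAPS intervals overlapped in Cntnap5a, Ctnna3, Cdh12, Ctnna2, Dlg2, Negr1, Cntnap4 and Opcml. Of the genes lower in TAPSβ, intervals overlapped in Cdh12, Lsamp and Cntnap2. Over 2624 protein-coding genes with at least 10 isolated CpGs, CAPS was lower in 79.3% and TAPSβ in 49.8%. The list was not tested against these genes. Within the list isolated CpGs ranged from 58.8% in Ctnna3, an alpha-catenin, to 69.2% in Macrod2 in TAPSβ and from 1.04% in Cadm2, an adhesion molecule, to 2.21% in Opcml in CAPS. Pluripotency genes lay in dense sequence. Of 14 found in the annotation, only Esrrb and Nr5a2, both nuclear receptors, held isolated CpGs, 5 of 6287 CpGs in all.

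Gene families differed. Olfactory receptor genes (Olfr) had 441 isolated CpGs (3.34%) with a TAPSβ level of 62.3%, against 70.2% with 4 to 10 neighbours, and vomeronasal receptor genes (Vmn1r and Vmn2r) had 1283 (9.25%) with 60.4% against 67.0%. In CAPS the intervals of these 2 classes overlapped in both families, with 1.80% at isolated CpGs of Olfr genes against 2.04% with 4 to 10 neighbours, and 2.07% against 2.08% for vomeronasal receptor genes. Of isolated CpGs in the latter 1.64% were variant-like, and without these and those read on 1 strand their CAPS level was 1.67% (1.52 to 1.84%). The denser class was not filtered in this way. Pooled over all protein-coding genes, TAPSβ was higher at isolated CpGs, with 66.0% against 63.7%. Gene by gene, isolated CpGs were lower in 49.8% of 2624 genes with at least 10 of them. Zinc finger genes named Zfp had 68.2% at 1089 isolated CpGs against 62.1%. Hox genes held 19. The 11 Skint genes, immunoglobulin-like genes of skin and thymus, had 499 (14.3%) with 33.5% in TAPSβ, 6.19% in CAPS and 4.84% in PS. Their denser CpGs were unusual too, with 35.9%, 7.97% and 6.96% at 1 to 3 neighbours and 44.6%, 4.97% and 3.98% at 4 to 10. Of the isolated CpGs 22.8% were read on 1 strand only and 6.41% were variant-like, at 13.7 TAPSβ reads per CpG. Without both kinds the levels were 46.0%, 3.03% and 0.470%. The part of these positions in the low TAPSβ level beyond that was not tested.

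The 22 bases around the CpG, 10 on each side, occurred once among autosomal CpGs for 85.9% of isolated CpGs. These had 65.1% in TAPSβ, 1.959% in CAPS and 0.240% in PS. The share was much the same with 1 to 3 (83.8%) and with 4 to 10 neighbours (86.0%). Copies without a CpG were not counted, and no repeat annotation was used. With 2 to 10 copies the PS level was 0.674%, against 0.603% with 1 to 3 and 0.495% with 4 to 10 neighbours. The 5 most frequent sequences at isolated CpGs are printed because each is 1 sequence read at many places.
529 isolated CpGs: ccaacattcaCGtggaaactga
515 isolated CpGs: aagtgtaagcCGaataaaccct
452 isolated CpGs: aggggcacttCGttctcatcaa
402 isolated CpGs: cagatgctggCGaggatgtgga
394 isolated CpGs: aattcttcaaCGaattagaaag

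Their TAPSβ levels at isolated CpGs were 61.6%, 75.2%, 68.2%, 70.0% and 39.1%, in this order. At the other autosomal CpGs with the same 22 bases they were 64.5%, 73.6%, 66.2%, 68.1% and 48.4%. The order of the 5 was the same in both, and the last, with A on both sides of its CpG, stood apart. The third had 9.75 TAPSβ reads per CpG, where the others had 22.6 to 27.6. Of its 671 autosomal copies 452 were isolated. The intervals of isolated and other copies overlapped only for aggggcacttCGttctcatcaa (66.8 to 69.5% against 64.4 to 68.0%). With intervals apart, isolated copies were lower for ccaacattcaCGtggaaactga and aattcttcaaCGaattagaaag. They were higher for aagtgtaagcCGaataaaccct and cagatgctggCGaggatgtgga. Reads of near-identical copies can be placed at the wrong copy, and the part of this in the levels was not tested.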

How the data were processed

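The authors trimmed reads (Trim Galore 0.3.1), mapped them to mm9 (BWA 0.7.12), removed duplicates (Picard 2.3.0) and called bases with asTair. They deposited, per CpG cytosine and strand, a count of modified and of unmodified reads and the fraction of both, which equals the counts' ratio and was not used further. Every listed cytosine was a CpG cytosine of NCBIM37 (mm9). Genes came from GENCODE vM1 of that assembly. Base calls numbered 511365019 in TAPSβ, 377288829 in CAPS and 383591531 in PS, with a median of 26, 19 and 19 reads per autosomal CpG, so single CpGs have wide intervals.

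Counts were summed over CpGs of a class with no minimum unless given. CpGs of high coverage had over 4 times the median reads. The rate for CAPS calls was taken from the study's methods. Named genes were the 10 with the most isolated CpGs. Named CpGs were the 5 farthest from a listed CpG with at least 20 TAPSβ and 10 CAPS and PS reads, and the 3 lowest in TAPSβ and the 3 highest in CAPS with at least 20 reads in each library, none on chromosome 18. The CpGs farthest from a reference CpG and the lowest with both strands read were chosen after their values were seen. The members, lists, motifs and alternatives were chosen with earlier results of these data known. The 20-bp steps, the 8-base sequences, the CpGs read on 1 strand and the matching on GC content were added after these data had been seen. The strand comparison, the calls and the intervals were tested on simulated data. Alternatives varied the window, coverage, averaging, strands, filters, matching and the calling rate. Python 3.11.15, numpy 2.4.6, scipy 1.17.1 and matplotlib 3.10.9 were used. Spike-in sequences and the mask of variants in the paper were not used here, and Tfcp2l1 of the pluripotency list was not matched. All 20 genes of the synapse and adhesion list are in its counts and pooled levels, and the single values of 1 of them are not reported here.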

Additional observations from a re-analysis of the deposited data

How the results depend on the processing

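No paired analysis was possible because each method had 1 library and the labels give no replicate numbers. With no replicates, a value was taken as moved where it left its counting interval, which is narrow at this depth, and the count of calls where it changed by more than 1.5 times. The cause of these moves was not tested. The TAPSβ level of isolated CpGs minus that of 4 to 10 neighbours, 1.11 points, turned to -2.56 points with a 500-bp window, -0.574 with means of single-CpG levels and -1.23 with matching on 1-Mb bins. Among alternatives chosen after seeing the data, it turned to -2.23 with matching on GC content and -0.356 over 10 kb from coding starts. It was 8.89 with a 150-bp window, 1.17 with distances to every reference CpG, 1.72 with matching on the bases beside the CpG and, as later additions, 1.70 without CpGs read on 1 strand, 1.73 also without variant-like CpGs and 1.46 at unique 22-base sequences.

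The CAPS ratio of isolated CpGs to 4 to 10 neighbours, 0.576, stayed below 1 in all 18 alternatives (0.464 to 0.832). It was 0.605 with a 150-bp and 0.625 with a 500-bp window, 0.550 as a mean of single CpGs, 0.556 without variant-like CpGs, 0.569 without high coverage, 0.717 with matching on bins and 0.559 on TAPSβ level, and 0.464 with the rate subtracted. Of the later additions, GC matching gave 0.832, leaving out variant-like and 1-strand CpGs 0.558, and unique sequences 0.555. The PS ratio, 1.31, stayed above 1 in all 17, between levels that are close to or below the background of PS. It was 1.09 and 1.43 with the 150-bp and 500-bp windows, 1.14 as a mean, 1.03 without variant-like CpGs, 1.22 without high coverage, 1.36 on the plus and 1.27 on the minus strand and 1.04 with matching on bins. Later additions gave 1.27 with GC matching, 1.03 without variant-like and 1-strand CpGs, and 1.26 over 10 kb from coding starts.

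The variance ratio of the TAPSβ strands, 1.10, was 1.088 with a 500-bp window, 1.087 without variant-like CpGs with or without 1-strand CpGs, 1.093 at unique sequences and 1.15 with at least 15 reads a strand. The TAPSβ coverage ratio, 1.14, was 1.16 with reference distances, 1.21 and 1.07 with 150-bp and 500-bp windows, 1.134 without variant-like CpGs, 1.133 without high coverage, 1.136 and 1.135 on the plus and minus strand, 1.23 with matching on bins and 1.13 on bases or GC content. It was 1.144 without 1-strand CpGs, 1.143 also without variant-like ones, 1.12 at unique sequences and 1.15 over 10 kb from coding starts. Called isolated cytosines numbered 5832, against 34991 and 937 with the 150-bp and 500-bp windows, which change the set, 2916 on either strand alone and 9567 with strands summed. The other 6 alternatives gave 4471 (at least 10 reads) to 5805. The TAPSβ level stayed below that of 1 to 3 neighbours in all 6 alternatives (-1.70 to -1.15 points). These were filters on CpGs. The other windows, the averaging and the matching were not run for this contrast.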
